A study of Mus musculus with 4 samples.

Results

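The genes described here are 34 genes of the endoplasmic reticulum (ER) stress response, measured by RNA sequencing of mouse liver. They were taken by name from a list of sensors, transcription factors, chaperones and folding enzymes, degradation genes and genes of the Atf4 arm. All 34 were found among the 37315 genes of each count file, and all 34 passed the filter on low counts that left 14657 genes for testing. Livers of C57BL/6 mice with a synonymous Foxo1 mutation, at 23 weeks of age, gave 2 libraries, and livers of wild type mice, alike in strain and age, gave the other 2. Such a mutation swaps a codon for another that encodes the same amino acid. Where in Foxo1 it lies, on how many alleles, and whether the mice had been fed was not given in the sources used here. Insulin restrains Foxo1, a forkhead factor, in hepatocytes. Nothing in the labels ties the libraries to different animals, and every p-value below therefore reflects variation among these 4 samples that could be technical.

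The ER folds and glycosylates the secreted and membrane proteins of a cell, and hepatocytes, which secrete most plasma proteins, carry a heavy load of this work. When unfolded proteins build up in it, the sensors Ern1 (IRE1), Eif2ak3 (PERK) and Atf6 start the unfolded protein response. Ern1 splices the Xbp1 mRNA, Atf6 is cut to release a transcription factor, and both routes raise chaperones and the degradation machinery. Eif2ak3 slows translation and favours that of Atf4, whose targets include amino acid synthesis genes and the proapoptotic factor Ddit3 (CHOP). Counts per gene do not separate spliced from unspliced Xbp1 mRNA, and they do not show the cleavage of Atf6 or the phosphorylation of Eif2ak3.

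Atf6 and spliced Xbp1 act through the ER stress response element (ERSE), and Atf4 acts with C/EBP proteins through a C/EBP-ATF response element (CARE). The promoters of the members are shown here because the library pattern described below lies in the chaperones, many of which carry the first element, and the largest group difference lies in Asns, which carries letters of the second. RefSeq promoters, 250 bases before to 50 bases after the start (GRCm38.p6), were present for 30 of the 34 members. The ERSE was searched on both strands as CCAAT and CCACG with 9 bases of any kind between them, and 9 of the 30 members (30.0%) held it, against 0.137% of 27025 genes in the promoter table. These were Hspa5, Hsp90b1, Calr, Canx, Pdia6, Dnajc3, Creld2, Syvn1 and Derl3. Each stretch below reads 5′ to 3′ on the strand of its gene and ends before the transcription start, and the capitals mark the fixed letters of the motif.
Hspa5: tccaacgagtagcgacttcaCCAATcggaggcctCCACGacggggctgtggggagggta
Hsp90b1, distal: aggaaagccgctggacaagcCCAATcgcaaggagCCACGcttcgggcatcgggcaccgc
Hsp90b1, proximal: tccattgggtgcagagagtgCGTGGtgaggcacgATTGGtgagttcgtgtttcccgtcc
Creld2: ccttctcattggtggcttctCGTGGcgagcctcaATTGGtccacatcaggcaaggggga
Dnajc3: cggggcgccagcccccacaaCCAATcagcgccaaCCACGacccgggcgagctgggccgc
Syvn1: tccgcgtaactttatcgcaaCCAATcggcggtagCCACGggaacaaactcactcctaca
Derl3: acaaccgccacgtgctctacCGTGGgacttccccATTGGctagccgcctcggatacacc
The stretches lie at chr2:34772005-34772063 (plus strand) for Hspa5, chr10:86705618-86705676 and chr10:86705513-86705571 (minus strand) for Hsp90b1, chr15:88819500-88819558 (plus) for Creld2, chr14:118937807-118937865 (plus) for Dnajc3, chr19:6046512-6046570 (plus) for Syvn1 and chr10:75893222-75893280 (plus) for Derl3. In Hspa5 the motif ran from base −65 to base −47 before the start, and Hsp90b1 held it at −212 and again, on the other strand, at −107.

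A shorter form, ERSE-II, was searched on both strands as ATTGG and CCACG with 1 base of any kind between them, and was found in Herpud1 and Dnajb11, 2 of the 30 members (6.67%), against 0.0444% of genes in the table. CARE was searched as TGATGNAA on both strands and was found in Asns, Chac1, Herpud1, Vldlr and Trib3, 5 of the 30 members (16.7%), against 4.51% of genes. In Trib3 the match lay after the start. Herpud1 is shown because it holds both elements and Asns because of its group difference. In no member did matches of different motifs overlap.
Herpud1, ERSE-II: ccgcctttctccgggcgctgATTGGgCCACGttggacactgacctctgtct
Herpud1, CARE: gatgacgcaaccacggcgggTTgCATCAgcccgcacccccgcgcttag
Asns, CARE: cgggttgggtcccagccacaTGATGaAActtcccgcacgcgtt
They lie at chr8:94386357-94386407 and chr8:94386297-94386344 (plus strand) and at chr6:7693210-7693252 (minus strand). In Asns the match ran from base −23 to base −16. A match in these windows describes the letters only and is neither a bound site nor a cause. The members were listed as genes of a response that acts through these elements, so their higher shares are not an independent result.

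Total counts were 95908652 and 83594287 in mutant replicates 1 and 2, and 80975687 and 73551737 in wild type replicates 1 and 2, so a floor of 3 counts stood for 0.0315 to 0.0415 CPM (TMM-normalised counts per 1e6) and covers counting error only. Foxo1 was at 33.6 and 53.4 CPM in mutant liver, against 44.0 and 54.8 CPM in wild type liver (difference on the log2 scale −0.18 with SE 0.30, and adjusted p = 1.0 in edgeR). Of 8 hepatocyte markers 0 were at 0 counts, and they summed to 95944 and 92629 CPM in mutant liver, against 97844 and 109760 CPM in wild type liver. Of 10 macrophage and Kupffer cell markers all 10 were higher in both mutant libraries and 6 passed the threshold, with sums of 457 and 515 CPM in mutant liver, against 296 and 312 CPM in wild type liver. In bulk tissue, fewer cells of a type and less RNA per cell cannot be told apart.

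No member of the ER stress response passed the test of mutant against wild type liver. With edgeR's quasi-likelihood test and Benjamini-Hochberg adjustment, 0 of 34 members had an adjusted p below 0.05, where 0.341% of all genes tested did. At an unadjusted p below 0.05 there were 2 members, Asns and Trib3, where 6.19% of all genes lay below it. DESeq2 called 1 member (0.811% of its genes) and limma-voom 0 (0.0478%). With no filter edgeR called 2 (1.12% of its genes), without robust estimation 0 (0.0546%), and with single libraries left out 0 without mutant replicate 1 (0.0205%), mutant replicate 2 (0.102%) and wild type replicate 1 (0.0887%) and 2 without wild type replicate 2 (0.116%). The log2 fold change, mutant over wild type, was positive in 23 and negative in 11 members with a median of 0.08, against 49.7% positive and a median of −0.0013 over all genes tested. Both mutant libraries lay above both wild type libraries in 4 members, Atf6, Xbp1, Atf4 and Asns, and 17.0% of all genes did so. Both lay below in 3 members, Herpud1, Derl1 and Trib3, and 17.0% of all genes did so. The other 27 members overlapped between the groups.

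**Figure D1:**
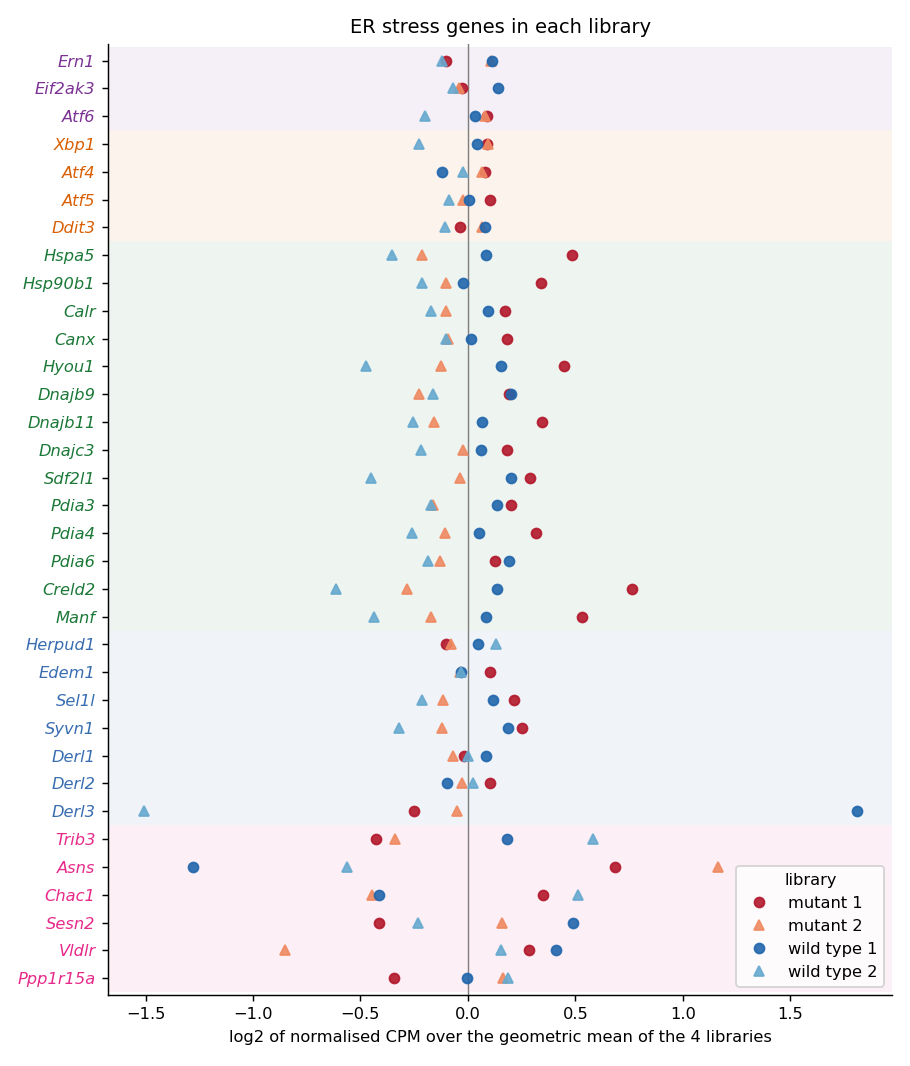
Level of each of the 34 genes in each library, as log2 of normalised CPM over the geometric mean of the 4 libraries (x axis), with genes in rows shaded by role. In all 14 chaperones and folding enzymes (green names) the circles, replicate 1 of each group, lie right of the triangles, replicate 2. The red mutant points separate from the blue wild type points in Asns, Trib3, Atf6, Xbp1, Atf4, Herpud1 and Derl1.

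Chaperones took the first 4 places in the order of levels per kilobase of exon, and below them the roles were mixed, with Herpud1 in place 5 and Atf5 in place 6. Calr, the calcium-binding lectin chaperone calreticulin, was at 347 and 287 CPM per kilobase in mutant liver, against 329 and 274 in wild type liver. Next came Hsp90b1 (GRP94), Hspa5 (BiP) and Pdia3, with means over the 4 libraries of 204, 168 and 166 CPM per kilobase. The sensors stood far lower, at 10.2 for Ern1, 8.02 for Atf6 and 2.02 for Eif2ak3. All 6 genes of the Atf4 arm were below 5 CPM per kilobase on average, and Vldlr, the very low density lipoprotein receptor, was lowest of all at 0.108. Lengths are unions of annotated exons, so a gene with long rarely used exons is placed too low.

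**Figure D2:**
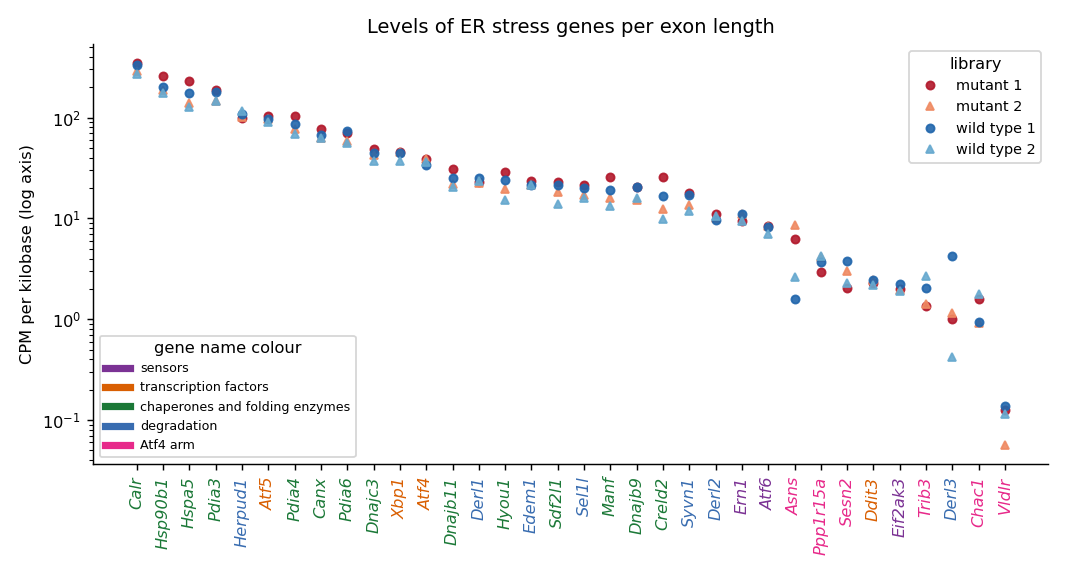
Level per kilobase of exon (log y axis) of the 34 genes in each library, ordered from the highest mean to the lowest. Calr is highest at 309 CPM per kilobase on average and Vldlr lowest at 0.108, the first 4 places are chaperones or folding enzymes (green names), and the roles are mixed from there on, with the 6 Atf4 arm genes (pink names) among the last 9 places.

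None of the 3 sensors passed the test. Ern1, the kinase and endoribonuclease that splices Xbp1, was at 77.6 and 89.7 CPM in mutant liver, against 89.9 and 76.6 CPM in wild type liver. The groups overlapped completely, and the log2 fold change of 0.0061 had a 95% confidence interval of −0.23 to 0.24 (edgeR adjusted p = 1.0). Eif2ak3, the kinase of the translation factor eIF2 alpha, was at 12.0 and 11.8 CPM in mutant liver, against 13.4 and 11.6 CPM in wild type liver. Its mutant values lay between the wild type ones, and the interval of its log2 fold change was −0.34 to 0.19. Atf6 was at 78.4 and 78.0 CPM in mutant liver, against 75.5 and 64.2 CPM in wild type liver. Both mutant libraries were above both wild type ones, and wild type replicate 2 was the lowest by a clear step. Its log2 fold change of 0.16 (SE 0.10) did not pass (edgeR adjusted p = 0.951), and was 0.05 without wild type replicate 2.

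None of the 4 transcription factors passed the test either, and all 4 log2 fold changes were positive. Xbp1 was at 148.7 and 148.9 CPM in mutant liver, against 144 and 119 CPM in wild type liver. Again wild type replicate 2 was the low library, and the log2 fold change was 0.18 (SE 0.11, edgeR adjusted p = 0.951), or 0.05 without that library and 0.32 without wild type replicate 1. Atf4, the transcription factor of the integrated stress response, was at 92.5 and 91.6 CPM in mutant liver, against 80.3 and 85.96 CPM in wild type liver. The groups did not overlap, and the log2 fold change was 0.15 (SE 0.09, edgeR adjusted p = 0.951). Ddit3 was at 3.90 and 4.18 CPM in mutant liver, against 4.23 and 3.72 CPM in wild type liver. Its mutant values lay inside the wild type range, with a log2 fold change of 0.02 (interval −0.37 to 0.41). Exons of Ddit3 overlap those of Mars and Gm4189 on the opposite strand and those of another entry named Ddit3 on the same strand. Strand was not kept by the library kit, so the share of Ddit3 in these reads is uncertain. Atf5, a relative of Atf4 that is abundant in liver, had the highest level per kilobase among these factors (97.3) and a log2 fold change of 0.08 (SE 0.10). Its exons overlap those of Il4i1 and Nup62 on the opposite strand, so this level is less certain.

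The chaperones and folding enzymes differed more between libraries of the same group than between the groups, and none passed the test. Hspa5, the ER member of the Hsp70 family, was at 968 and 596 CPM in mutant liver, against 734 and 541 CPM in wild type liver. Mutant replicate 1 was the highest library and wild type replicate 2 the lowest, and the groups overlapped (782 ± 263 and 638 ± 136 CPM, SD, n = 2 each). The log2 fold change of 0.29 (SE 0.33) had an interval of −0.69 to 1.28 and did not pass (edgeR adjusted p = 1.0). Creld2, a folding factor with epidermal growth factor domains, had the largest change of the role. It was at 34.9 and 16.9 CPM in mutant liver, against 22.6 and 13.5 CPM in wild type liver (edgeR adjusted p = 1.0 for a log2 fold change of 0.52, SE 0.60). The order of the libraries was that of Hspa5, and the highest was 2.59 times the lowest.

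The same order of libraries was found across most of the role. In all 14 chaperones and folding enzymes the level was higher in replicate 1 than in replicate 2 of both groups, a pattern seen in 23.5% of all genes tested. In 12 of the 14 (85.7%) the libraries ran from mutant replicate 1 through wild type replicate 1 and mutant replicate 2 to wild type replicate 2, an order that 4.02% of all genes had. The exceptions were Dnajb9 and Pdia6, in which wild type replicate 1 was highest. The median log2 ratio of replicate 1 over replicate 2 was 0.42 in mutant and 0.34 in wild type liver, against −0.0012 and −0.0054 over all genes. These counts describe 4 libraries and were chosen after the values were seen. The replicate numbers were not taken as a pairing between the groups. In 6 of the 14 the highest library was over 1.5 times the lowest, as in 29.8% of all genes.

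Several members show the extent of this spread. Hsp90b1, the ER member of the Hsp90 family, was at 1032 and 759 CPM in mutant liver, against 801 and 703 CPM in wild type liver. Hyou1, a large relative of Hsp70 that acts as exchange factor for Hspa5, was at 211 and 142 CPM in mutant liver, against 172 and 111 CPM in wild type liver. Manf, a secreted survival factor of the ER, was at 91.1 and 56.0 CPM in mutant liver, against 66.8 and 46.6 CPM in wild type liver. In each of these genes mutant replicate 2 lay below wild type replicate 1. Exons of Manf overlap Rbm15b on the same strand and other genes on the opposite strand, and exons of Hsp90b1 overlap genes on both strands, so their levels are less certain. The log2 ratio of replicate 1 over 2 spanned 0.206 to 1.05 in mutant and 0.116 to 0.749 in wild type liver across the 14 genes.

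The other chaperones and folding enzymes had log2 fold changes, mutant over wild type, between −0.03 (Dnajb9) and 0.22 (Sdf2l1), and none passed. They include the lectin chaperones Calr and Canx, which hold glycoproteins until they fold, and the disulfide isomerases Pdia3, Pdia4 and Pdia6. Dnajb9, Dnajb11 and Dnajc3 are J-domain partners of Hspa5, and Sdf2l1 works in a complex with Dnajb11. Sdf2l1 and Dnajb11 were among the 6 genes whose highest library was over 1.5 times the lowest (1.67 and 1.52 times), and in Canx the ratio was 1.22.

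Of the 9 members with an ERSE match, 7 had the order of libraries of Hspa5, and Derl3 and Pdia6 did not. Of these 9, 8 were higher in replicate 1 of both groups and all 9 were lowest in wild type replicate 2, against 23.5% and 24.2% of all genes. Of the 21 members with a promoter in the table and no ERSE match, 10 were higher in replicate 1 of both groups. Also 10 of the 21 were lowest in wild type replicate 2. These 21 include Herpud1 and Dnajb11, which held the shorter ERSE-II. Of the chaperones, 7 held a match and 5 had none in the window. All 14 chaperones were higher in replicate 1 of both groups, so splitting them by the letters could not show a difference. Of the 14, 13 were lowest in wild type replicate 2. As 7 of the 9 members with a match were chaperones, match and role cannot be told apart in the contrast with the 21. Derl3 was the member with a match that was not higher in replicate 1 of both groups.

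The direction of the group difference in this role rested on single libraries. With all libraries the log2 fold change was positive in 12 of 14 chaperones and its median was 0.21. Without mutant replicate 1 there were 4 positive and 10 negative, with a median of −0.06. Leaving out wild type replicate 2 gave a median of 0.04. All 14 were positive when mutant replicate 2 was left out (median 0.39) and when wild type replicate 1 was left out (median 0.36). Hspa5 itself was at −0.10 without mutant replicate 1 and at 0.60 without mutant replicate 2.

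**Figure D3:**
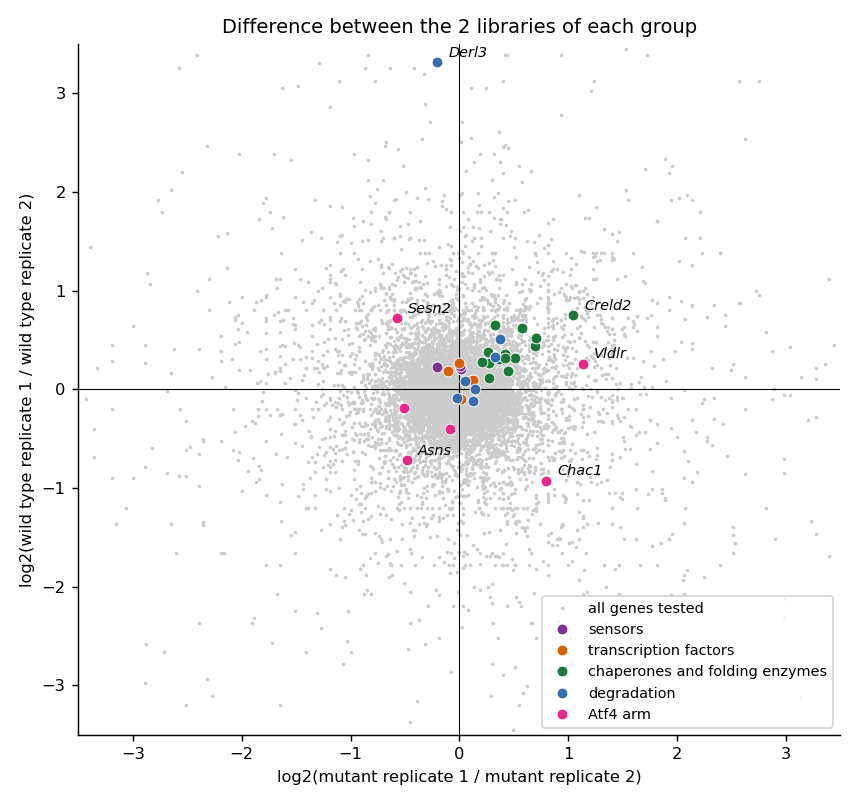
Log2 ratio of replicate 1 over replicate 2 in mutant liver (x axis) and in wild type liver (y axis) for each member, coloured by role, over all genes tested in grey. All 14 chaperones and folding enzymes lie in the upper right, where both ratios are above 0, Derl3 stands at the top, and 101 genes of the background lie outside the plotted range.

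Replicate 1 was the deeper library in each group, and CPM values are scaled for depth. Mutant replicate 2 had more total counts (83594287) than wild type replicate 1 (80975687). Markers of 2 other secretory cell types were summed in each library. Plasma and B cell markers summed to 18.9 and 11.3 CPM in mutant liver, against 16.6 and 31.2 CPM in wild type liver. In wild type replicate 2 the largest parts of the sum were Ighm at 16.2 CPM and Igkc at 9.73 CPM. Of the 10 listed, 9 were tested, of which 5 were highest and 1 was lowest in wild type replicate 2. Of the 10, 1 was at 0 in all libraries, and Jchain, which joins secreted antibody chains, was at 1.71 and 0.980 CPM in mutant liver, against 1.87 and 2.45 CPM in wild type liver. Of 10 markers of pancreatic acinar cells, Cela3b, Prss2, Cpa1 and Cel were at 0 in all libraries, and the list summed to 18.6 and 19.0 CPM in mutant liver, against 23.1 and 20.6 CPM in wild type liver, nearly all of it Cela1. The part of sequencing depth in the pattern was not tested, and neither was that of other secretory cell types.

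Degradation genes, which draw misfolded proteins out of the ER for destruction by the proteasome, did not move as 1 group. The median log2 fold change was 0.06 over 7 genes, with 4 positive and 3 negative. Sel1l and Syvn1, the adaptor and the ubiquitin ligase of the main retrotranslocation complex, had the same order of libraries as Hspa5. Derl2, a relative of Derl1, overlapped between the groups with a log2 fold change of 0.08. Herpud1, a membrane component of this complex, was at 231 and 235 CPM in mutant liver, against 256 and 272 CPM in wild type liver. It lay lower in both mutant libraries and its replicates were close, yet the log2 fold change of −0.18 (SE 0.10) did not pass (edgeR adjusted p = 0.917). Derl1, a channel component, also lay lower in both mutant libraries, at 77.3 and 74.6 CPM, against 83.0 and 78.3 CPM in wild type liver (edgeR adjusted p = 1.0 for a log2 fold change of −0.09, SE 0.09). Edem1, which trims mannose from misfolded glycoproteins, was at 145 ± 9.86 CPM in mutant and 138 ± 0.120 CPM in wild type liver (SD, n = 2 each).

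The value of Derl3, a relative of Derl1, depended on which wild type library was kept. It was at 2.02 and 2.32 CPM in mutant liver, against 8.42 and 0.844 CPM in wild type liver. The counts behind these values were 192 and 194 in mutant and 698 and 61 in wild type liver. Wild type replicate 1 stood 9.97 times above wild type replicate 2, and both mutant libraries lay between them. Its SE of 1.43 exceeded its log2 fold change of −1.10 in size (edgeR adjusted p = 1.0). It was 1.36 without wild type replicate 1, and −1.96 with an edgeR adjusted p of 0.0154 without wild type replicate 2. limma-voom gave −0.41 with all libraries.

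The Atf4 arm held both members with an unadjusted p below 0.05, and they differed in opposite directions. Asns, the asparagine synthetase that makes asparagine from aspartate and glutamine (mm10 chromosome 6, 7675169 to 7693254, minus strand), was at 17.1 and 23.8 CPM in mutant liver, against 4.38 and 7.20 CPM in wild type liver. The counts were 1627 and 1991 in mutant and 363 and 520 in wild type liver. The lowest mutant library was above the highest wild type one, and the difference was larger than the spread within either group (20.4 ± 4.75 and 5.79 ± 1.99 CPM, SD, n = 2 each). The log2 fold change of 1.82 (SE 0.32), a 3.54-fold higher level in mutant liver, was the largest of the 34, with an interval of 0.92 to 2.73. It did not pass over all genes in the robust edgeR fit (unadjusted p = 0.00513, edgeR adjusted p = 0.348).

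The call on Asns changed between tools and settings, and its direction did not in any of the 12 alternatives. DESeq2 gave the same log2 fold change with an SE of 0.22 and an adjusted p of 8.42e-13. edgeR without robust estimation gave an SE of 0.24 and an adjusted p of 0.0532, and limma-voom an adjusted p of 0.0544. With no filter on low counts, edgeR gave an adjusted p of 8.38e-22. Leaving out each library in turn gave log2 fold changes of 1.51 to 2.22, and over all 12 alternatives the adjusted p ran from 8.38e-22 to 0.42. Macrophage markers, at sums of 457 and 515 CPM in mutant liver against 296 and 312 CPM in wild type liver, were higher as well. The globin gene Hbb-bt was also higher, at 15.5 and 16.2 CPM in mutant liver against 9.57 and 8.71 CPM in wild type liver (edgeR adjusted p = 0.0145). Of 5 erythroid markers 4 were tested, all 4 had a positive log2 fold change, and only Hbb-bt passed. Nr1d1, a repressor of the circadian clock, was lower, at 27.6 and 28.7 CPM in mutant liver against 56.9 and 44.9 CPM in wild type liver (edgeR adjusted p = 0.0109). Of 11 clock genes tested, 7 had a positive log2 fold change and 4 a negative one, and only Nr1d1 passed. The sum of 8 genes that respond to feeding was 6299 and 6563 CPM in mutant liver against 8623 and 10856 CPM in wild type liver, with 2 of the 8 at an unadjusted p below 0.05. The part of these in the Asns difference was not tested.

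Trib3, a pseudokinase induced by Atf4 and Ddit3 that restrains Akt signalling (mm10 chromosome 2, 152337422 to 152344032, minus strand), was at 2.85 and 3.02 CPM in mutant liver, against 4.34 and 5.73 CPM in wild type liver. Both mutant libraries were below both wild type ones. The log2 fold change of −0.78 (SE 0.19) had an interval of −1.20 to −0.35 and did not pass over all genes (unadjusted p = 0.00167, edgeR adjusted p = 0.191). It stayed between −0.96 and −0.56 with each library left out, and its adjusted p ran from 0.0137 with no filter to 0.842 without wild type replicate 2. The counts were 271 and 253 in mutant and 360 and 414 in wild type liver.

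The other 4 genes of the arm overlapped between the groups. Chac1, which degrades glutathione, was at 2.59 and 1.49 CPM in mutant liver, against 1.53 and 2.91 CPM in wild type liver. Sesn2, a stress-induced inhibitor of mTORC1, was at 7.10 and 10.6 CPM in mutant liver, against 13.3 and 8.04 CPM in wild type liver. Ppp1r15a (GADD34), which directs the dephosphorylation of eIF2 alpha, was at 8.66 and 12.3 CPM in mutant liver, against 10.9 and 12.5 CPM in wild type liver. Each of these had a negative log2 fold change (−0.11, −0.27 and −0.16) with an edgeR adjusted p of 1.0. Vldlr was at 1.26 and 0.574 CPM in mutant liver, against 1.37 and 1.15 CPM in wild type liver, with a log2 fold change of −0.45 (SE 0.38), which was −1.14 without mutant replicate 1 and −0.0057 without mutant replicate 2. In 5 of the 6 genes of the arm the log2 fold change was negative, with Asns the exception, where 7374 of all 14657 genes tested were negative. With each library left out in turn, 4 of the 6 were negative and 2 positive.

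**Figure D4:**
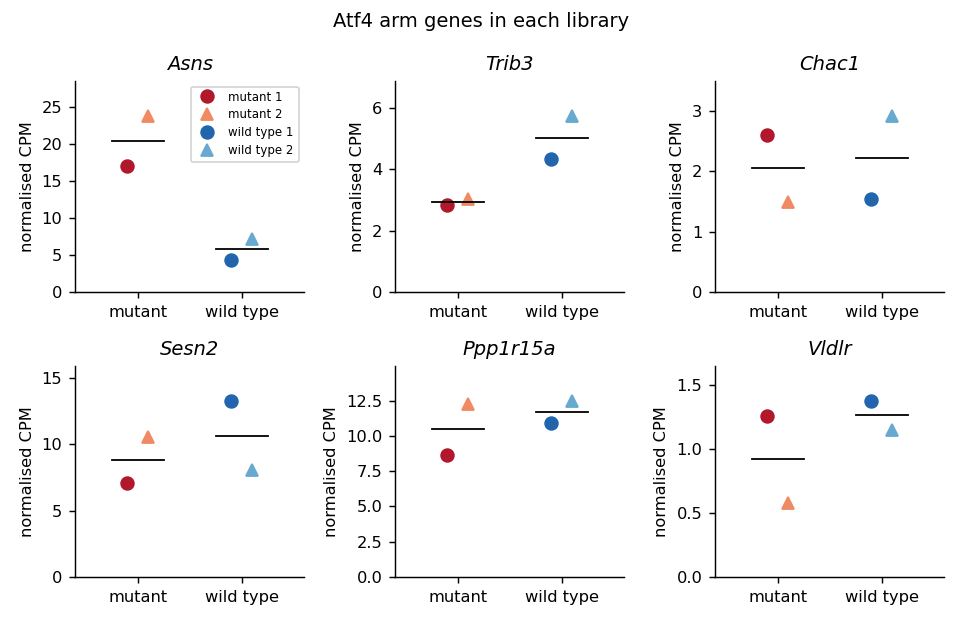
Normalised CPM (y axis, from 0) of the 6 Atf4 arm genes in mutant libraries (left, red) and wild type libraries (right, blue), with a line at each group mean. Asns is higher in both mutant libraries (17.1 and 23.8 against 4.38 and 7.20 CPM), Trib3 is lower in both (2.85 and 3.02 against 4.34 and 5.73 CPM), and the other 4 genes overlap.

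The rest of the pathway gave no call. Of 94 listed genes 92 were tested and 0 passed, whether by edgeR, by DESeq2 or by limma-voom, with 2 at an unadjusted p below 0.05. The log2 fold change was positive in 57 and negative in 35, with a median of 0.04. Among 31 tested genes around Atf4, which include other amino acid synthesis and transport genes, transfer RNA synthetases and eIF2 kinases, 17 were positive and 14 negative, with a median of 0.04. The 17 folding and glycan genes had 12 positive and 5 negative, the 15 degradation genes 11 and 4, the 19 translocation genes 15 and 4, and the 10 genes of sensor processing and membrane factors 2 and 8. Both mutant libraries lay above both wild type libraries in 16 of the 92 and below in 11, against 17.0% of all genes each way. Higher levels in replicate 1 of both groups were found in 12 of 17 folding and glycan genes (70.6%) and 10 of 15 degradation genes (66.7%). The same held for 6 of 10 genes of sensor processing and membrane factors (60.0%) and 9 of 19 translocation genes (47.4%). It held for 6 of 31 genes around Atf4 (19.4%), against the 23.5% of all genes given above.

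The smallest p among these belonged to Nupr1, a small stress-induced chromatin protein. It was at 0.767 and 1.32 CPM in mutant liver, against 0.458 and 0.595 CPM in wild type liver (edgeR adjusted p = 0.689 for a log2 fold change of 0.98, SE 0.40). Next was Pdia5, a disulfide isomerase, at 54.6 and 48.8 CPM in mutant liver, against 46.0 and 43.1 CPM in wild type liver (edgeR adjusted p = 0.784 for a log2 fold change of 0.21, SE 0.09). Sec61g, a subunit of the translocation channel, and Ostc, a subunit of the oligosaccharyltransferase complex, followed with log2 fold changes of 0.24 (SE 0.13) and 0.18 (SE 0.10). None of the 4 passed (edgeR adjusted p of 0.899 and 0.919 for Sec61g and Ostc).

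**Figure D5:**
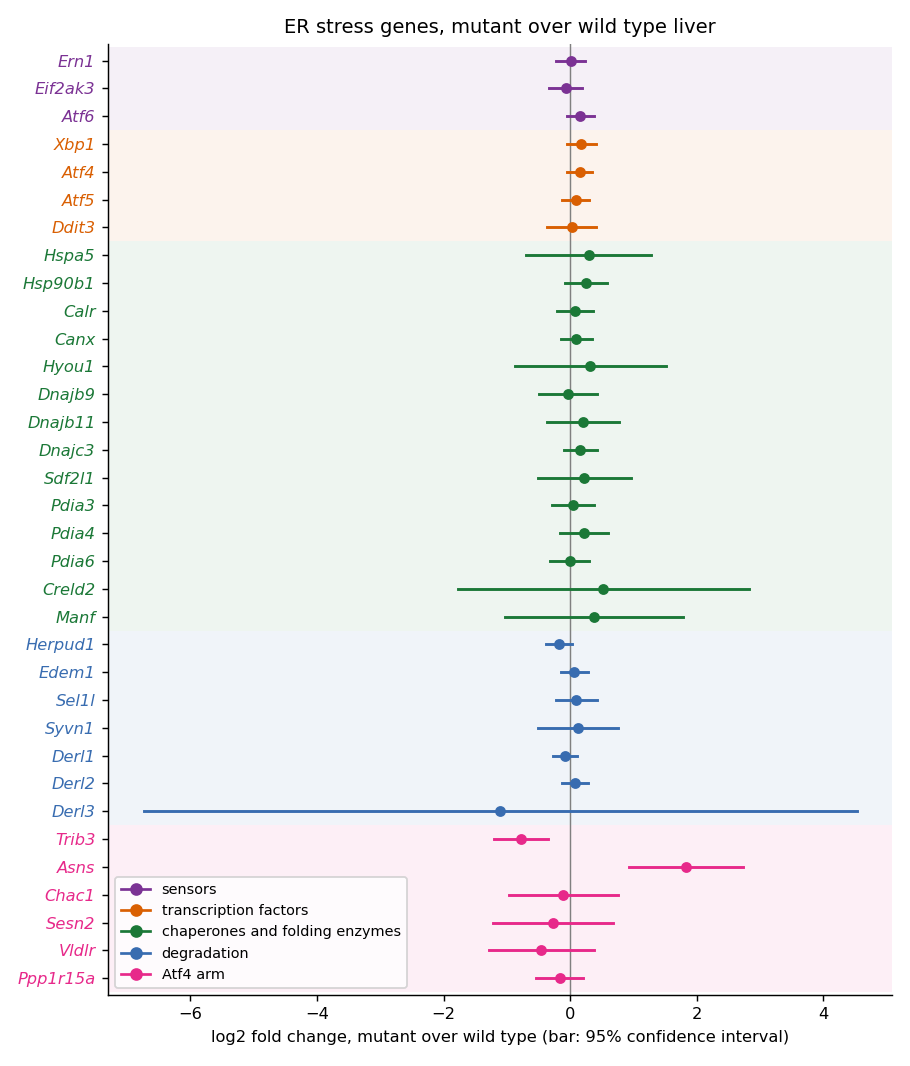
Log2 fold change, mutant over wild type (x axis), of the 34 genes with 95% confidence intervals from the edgeR fit, in rows by role. The intervals of Asns (0.92 to 2.73) and Trib3 (−1.20 to −0.35) do not reach 0, and the intervals of the other genes do, with the widest at Derl3 and Creld2.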

How the data were processed

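Each library has 1 deposited file of 37315 genes, and its values are the authors' raw read counts with no scaling and no pooling. TopHat2 2.1.1 was the aligner, HTSeq 0.6.0 the counter and mm10 the build, per the submitters' processing notes; how strand and shared reads were handled, and which annotation was used, is not stated there.

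GENCODE M21, also on mm10, supplied symbols and exon lengths, and all 34 members were found in it. There, exons of 12 members overlap those of another gene, 11 on the opposite and 4 on the same strand. The main test was edgeR's quasi-likelihood test (edgeR 4.0.16, R 4.3.3) with group alone in the model, TMM scaling, robust estimation and filterByExpr at a minimum count of 10. Benjamini-Hochberg adjustment covered 14657 genes, and an adjusted p below 0.05 passed. An SE is the size of the log2 fold change divided by the square root of F. The steps were checked on simulated counts.

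The settings varied were the scaling (RLE, upper quartile), the filter (none, or 1 CPM in 2 libraries), the tool (DESeq2 1.42.0, limma-voom with limma 3.58.1), no robust estimation, an adjusted p of 0.1, the replicate number as a block, and each library left out in turn with the same genes. Members, lists and roles were chosen with earlier results of these data known. Each library's value is given for the sensors, Xbp1, Atf4, Ddit3, Hspa5, members at an unadjusted p below 0.05 and the largest change in each role; other members given by library were chosen after their values were seen. Of the other pathway genes, the 4 with the smallest p are named. Promoter letters are from RefSeq (GRCm38.p6).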

Additional observations from a re-analysis of the deposited data

How the results depend on the processing

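RLE scaling, upper-quartile scaling and an adjusted p of 0.1 left the counts of genes past the threshold within 1.5 times of 50 (all genes) and at 0 (ER stress genes). Over all genes the count was 258 with no filter, 24 with a filter of 1 CPM in 2 libraries, 112 with DESeq2, 7 with limma-voom, 8 without robust estimation, and 3 to 17 with each library left out. Among the ER stress genes it was 2 with no filter (Asns, Trib3), 1 with DESeq2 (Asns) and 0 to 2 with each library left out (Asns and Derl3 without wild type replicate 2). The correlation of deviations between libraries of the same replicate number was −0.0072, so the numbers were not taken as a pairing; with the replicate number as a block the count was 111 over all genes and 1 among the ER stress genes (Asns, adjusted p = 2.29e-07). The other pathway genes gave 0 throughout. The cause of these changes was not tested, except that no filter adds genes and a left-out library removes data. With a group of 1 library, that library is assumed to vary like the other group.

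Of 455 values of single genes under alternatives, 419 kept direction and side of the threshold, 6 newly passed, and 30, all with a library left out, turned direction. Their log2 fold changes ran from −0.10 to 0.13 (Ern1), −0.17 to 0.038 (Eif2ak3), −0.067 to 0.12 (Ddit3), −0.10 to 0.60 (Hspa5), −0.069 to 0.21 (Calr), −0.048 to 0.22 (Canx), −0.26 to 0.16 (Dnajb9), −0.076 to 0.43 (Dnajb11), −0.067 to 0.58 (Sdf2l1), −0.15 to 0.21 (Pdia3), −0.011 to 0.41 (Pdia4), −0.19 to 0.19 (Pdia6), −0.10 to 0.95 (Creld2), −0.020 to 0.68 (Manf), −0.0070 to 0.13 (Edem1), −0.076 to 0.27 (Sel1l), −0.11 to 0.40 (Syvn1), −1.96 to 1.36 (Derl3), −0.56 to 0.42 (Chac1), −0.59 to 0.13 (Sesn2) and −0.44 to 0.070 (Ppp1r15a). With 2 libraries a group, an interval as wide as that of Creld2 (−1.78 to 2.82) leaves changes of several-fold in either direction undetectable.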
